A study of Homo sapiens with 9 samples.

Results

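Box C/D small nucleolar RNAs (snoRNAs) guide the 2'-O-methylation of ribosomal and other RNAs, and the genes described here are those of the proteins that make up or assemble the particles they work in. The 9 genes were taken as a named group, by symbol, out of 58425 genes in the tables. They are 4 core protein genes (FBL, NOP56, NOP58 and SNU13) and 5 assembly factor genes (NUFIP1, ZNHIT3, ZNHIT6, PIH1D1 and RPAP3). All 9 passed the filter on low counts and were tested. The rule that names them uses no measured value, but the group was picked with earlier results of these data known.

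Each mature box C/D particle holds one guide RNA and 4 core proteins. SNU13 binds the fold made by boxes C and D, NOP56 and NOP58 form a pair that spans the particle, and FBL (fibrillarin) transfers the methyl group. The particles are built in the nucleus by a chain of assembly factors that includes NUFIP1, ZNHIT3, ZNHIT6 (BCD1) and the R2TP complex, in which PIH1D1 and RPAP3 work with the helicases RUVBL1 and RUVBL2 and the chaperone HSP90. The H/ACA particles, which hold dyskerin and GAR1 and turn uridine into pseudouridine, are a separate class of snoRNP with their own core proteins, and R2TP takes part in the assembly of both classes.

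The samples were nuclear RNA of U2OS, a single osteosarcoma cell line, fractionated 48 hours after RNAiMAX transfection. The groups are named by the siRNA given, each at 15 nM: siControl is a control siRNA, siDyskerin targets the dyskerin gene and siGAR1 targets the gene of GAR1. The study lists Qiagen as supplier of the control siRNA and Dharmacon as supplier of both targeting siRNAs. Knockdown and supplier thus changed together, and the part of the supplier was not tested. Each group had 3 biological replicates, so 9 libraries of rRNA-depleted total RNA were compared. RNA of the nucleus was measured, not cytoplasmic RNA or protein. The question put to the data was whether loss of an H/ACA protein changes the RNA of the box C/D proteins.

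Summed transcript reads were 48838756 to 90698675 per library. These sums can hold a read several times, in each transcript it fits, so they are not sequencing depths. DKC1, which encodes dyskerin, fell by 2.79 on the log2 scale in siDyskerin (adjusted p = 1.5e-11, edgeR quasi-likelihood test), and GAR1 fell by 2.68 in siGAR1 (adjusted p = 6.1e-08), so each library carried the knockdown on its label. Of 8 bone lineage markers 6 passed the count filter, and SPARC lay between 622 and 764 CPM (counts scaled to library size), while COL1A2 and IBSP were at or near 0. BGLAP passed with at most 0.26 CPM, and RUNX2, COL1A1, SPP1 and ALPL lay between 7.51 and 41.5 CPM. Mean SPP1 was 8.63 CPM in siControl, 24.8 in siDyskerin and 10.9 in siGAR1. Of 6 epithelial markers 5 passed, EPCAM stayed under 2.34 CPM, and KRT8 and KRT18 made up nearly all of the summed level, which was 777 to 885 CPM in siControl, 1154 to 1179 in siDyskerin and 949 to 1171 in siGAR1. The part of that shift in the results below was not tested. The replicates of a group were distinct libraries: over 14561 genes the chi-square per degree of freedom between replicates was 9.37 to 41.5, and the siControl pairs that include replicate 1 had 34.9 and 41.5 against 9.49 for replicates 2 and 3.

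The RNAs that these proteins package are in part encoded inside their own genes. GENCODE 44 places 9 snoRNA genes in introns of the members, 5 in NOP56 and 4 in NOP58, of which 8 are box C/D RNAs and SNORA51 is an H/ACA RNA. The sequences below are shown with the boxes of their class in capitals, and those of the box C/D RNAs are what the core proteins bind. In the box C/D RNAs the capitals mark TGATG, the centre of box C, and CTGA, box D, each searched on the RNA strand within 20 bases of its end. In SNORA51 they mark the ACA box, 3 bases from the 3′ end. The sequences are GENCODE 44 transcripts on GRCh38, plus strand, 5′ to 3′.
SNORD110 (NOP56 intron, chr20:2654212-2654286): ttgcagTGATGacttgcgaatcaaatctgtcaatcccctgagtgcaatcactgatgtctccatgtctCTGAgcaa
SNORD86 (NOP56 intron, chr20:2656097-2656182): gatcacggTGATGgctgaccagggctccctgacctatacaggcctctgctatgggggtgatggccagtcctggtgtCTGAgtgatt
SNORD70 (NOP58 intron, chr2:202276431-202276518): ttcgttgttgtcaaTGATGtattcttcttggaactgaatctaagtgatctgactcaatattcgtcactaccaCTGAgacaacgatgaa
SNORA51 (NOP56 intron, chr20:2655067-2655198): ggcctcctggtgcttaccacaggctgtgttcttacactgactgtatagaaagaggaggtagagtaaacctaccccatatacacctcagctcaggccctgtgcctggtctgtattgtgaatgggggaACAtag

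All 8 box C/D guests held both motifs in these windows, against 74.8% of 313 annotated SNORD genes. An ACA at that place was held by 66.4% of 214 annotated SNORA genes.

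After dyskerin knockdown 1 of 9 members passed an adjusted p of 0.01 and it was lower (PIH1D1), where 3.32% of the 18444 genes tested passed as lower and 3.08% as higher. At an unadjusted p under 0.05 there were 3 of 9 members, against 26.1% of all genes. After GAR1 knockdown none of the 9 passed in edgeR (background 1.63% higher and 1.79% lower), with 3 of 9 at an unadjusted p under 0.05 against 24% of all genes, and DESeq2 passed 1, again PIH1D1. Between the knockdowns 0 of 9 passed in edgeR and 0 in DESeq2 (background 2.61% higher and 2.78% lower), with 1 of 9 at an unadjusted p under 0.05 against 25.5% of all genes. The 9 genes had a median log2 fold change of -0.01 in siDyskerin and 0.04 in siGAR1, beside 0.00 and 0.01 over all genes tested. No member passed the further threshold of an absolute log2 fold change above 1, which 0.938% of genes passed after dyskerin knockdown, 0.282% after GAR1 knockdown and 0.721% between the knockdowns. The knockdowns share their control libraries, so their values are given side by side and not as independent results.

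**Figure D1:**
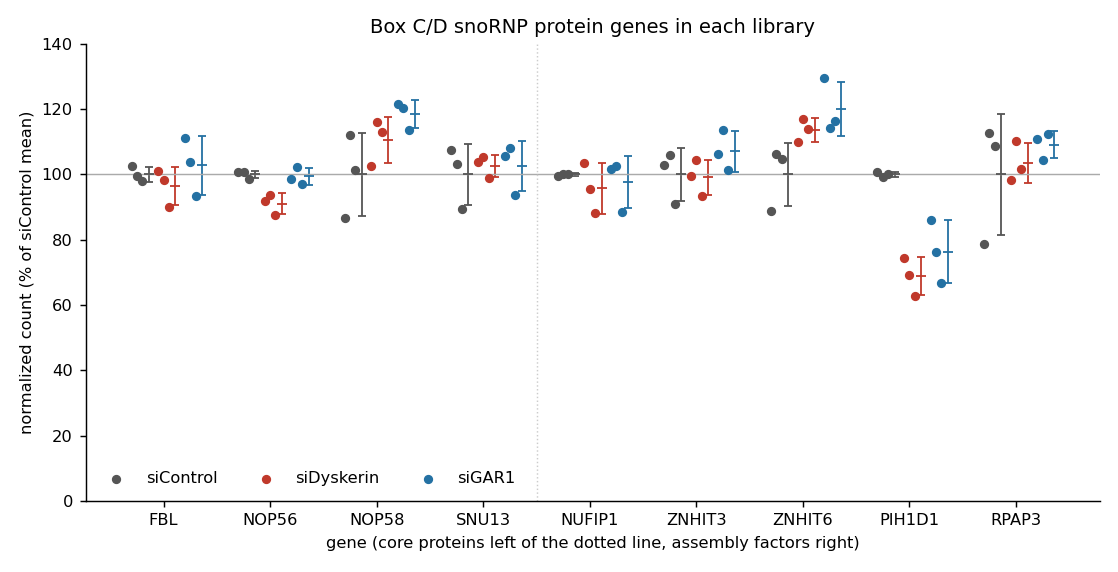
Normalized counts of the 9 genes in each library, as a percent of the siControl mean of that gene (y axis from 0). Points are the 3 libraries of a group and bars are mean ± SD (n = 3). PIH1D1 lies below its siControl libraries in all 6 knockdown libraries (62.8 to 86.1% of the siControl mean), while the other genes stay between 78.7 and 129.6% in every library.

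FBL (ENSG00000105202.9; chr19:39834458-39846379, minus strand) encodes the methyltransferase of the particle. Its normalized counts, the gene's summed transcript counts scaled to a common library size, were 12723, 12355 and 12141 in siControl, 12553, 12205 and 11173 in siDyskerin, and 13813, 12896 and 11575 in siGAR1. The 3 groups overlapped, and siGAR1 held both the highest library and one near the bottom. FBL had a log2 fold change of -0.05 after dyskerin knockdown (95% confidence interval -0.20 to 0.10, adjusted p = 0.73, edgeR) and 0.04 after GAR1 knockdown (-0.11 to 0.19, adjusted p = 0.78).

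NOP56 (ENSG00000101361.17; chr20:2652593-2658393, plus strand), one of the 2 scaffold proteins, had 42818, 42852 and 41971 normalized counts in siControl, 39144, 39844 and 37299 in siDyskerin, and 42024, 43544 and 41368 in siGAR1. Every siDyskerin library lay below every siControl and siGAR1 library, while siGAR1 overlapped siControl. The difference was small, 91.1% ± 3.09 of the siControl mean (SD, n = 3), and did not pass: the log2 fold change was -0.13 (-0.25 to -0.02, adjusted p = 0.11, edgeR). It was -0.01 after GAR1 knockdown (-0.12 to 0.10, adjusted p = 0.95), and siDyskerin minus siGAR1 was -0.13 (-0.24 to -0.01, adjusted p = 0.14). Groups that do not overlap were common, with 31.4% of genes separated between siDyskerin and siControl and 29.8% between siDyskerin and siGAR1.

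NOP58 (ENSG00000055044.11; chr2:202265736-202303661, plus strand), the partner of NOP56, had 7540, 9771 and 8825 normalized counts in siControl, 8932, 10116 and 9845 in siDyskerin, and 10593, 10481 and 9906 in siGAR1. The siGAR1 libraries all lay above siControl, a separation seen in 27.7% of genes, and the lowest value was that of siControl replicate 1. The log2 fold change was 0.25 after GAR1 knockdown (0.06 to 0.43, adjusted p = 0.093, edgeR) and 0.14 after dyskerin knockdown (-0.04 to 0.33, adjusted p = 0.32). Without siControl replicate 1 these were 0.15 (adjusted p = 0.30) and 0.04 (adjusted p = 0.80).

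SNU13 (ENSG00000100138.15; chr22:41673933-41690504, minus strand), which binds the box C/D fold first and is also a protein of the U4 snRNP, had 8228, 7907 and 6852 normalized counts in siControl, 7946, 8062 and 7583 in siDyskerin, and 8093, 8280 and 7191 in siGAR1. The 3 groups overlapped throughout. Log2 fold changes were 0.04 after dyskerin knockdown (-0.13 to 0.20, adjusted p = 0.83, edgeR) and 0.04 after GAR1 knockdown (-0.13 to 0.20, adjusted p = 0.83). The direction of both values changed when siControl replicate 3 was left out.

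PIH1D1 (ENSG00000104872.11; chr19:49446298-49453497, minus strand), the R2TP subunit that recruits client proteins to the complex, was the member that passed the threshold after dyskerin knockdown. It had 6055, 5952 and 6007 normalized counts in siControl, 4464, 4158 and 3771 in siDyskerin, and 5170, 4574 and 4009 in siGAR1. The siControl libraries differed by 1.71% of their mean, every knockdown library lay below them, and the knockdown groups overlapped each other. PIH1D1 fell by 0.54 on the log2 scale after dyskerin knockdown (standard error 0.09, 95% confidence interval -0.73 to -0.35, adjusted p = 0.0010, edgeR), to 0.688 times the siControl level. A value this low or lower was held by 5.47% of all genes tested and by 4.71% of the 14175 protein-coding ones. Over 19 other ways of processing, the value stayed between -0.60 and -0.49, with adjusted p between 3.9e-09 and 0.0074.

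After GAR1 knockdown the log2 fold change of PIH1D1 was -0.39 (standard error 0.09, 95% confidence interval -0.58 to -0.20), or 0.764 times the siControl level, and its adjusted p of 0.015 (edgeR) missed the threshold of 0.01. The call turned on the processing: in 6 of the 19 alternatives it passed, DESeq2 among them (adjusted p = 0.00063), and over all 19 the adjusted p was 6.3e-05 to 0.044. Without siGAR1 replicate 1, the highest of its group, the log2 fold change was -0.49 (adjusted p = 0.0073), and without replicate 3, the lowest, -0.31 (adjusted p = 0.034). The difference between the knockdowns was -0.15 (-0.34 to 0.04, adjusted p = 0.32, edgeR), so PIH1D1 was not shown to differ between them. In bulk libraries, less RNA in each cell and fewer cells with the RNA cannot be told apart.

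**Figure D2:**
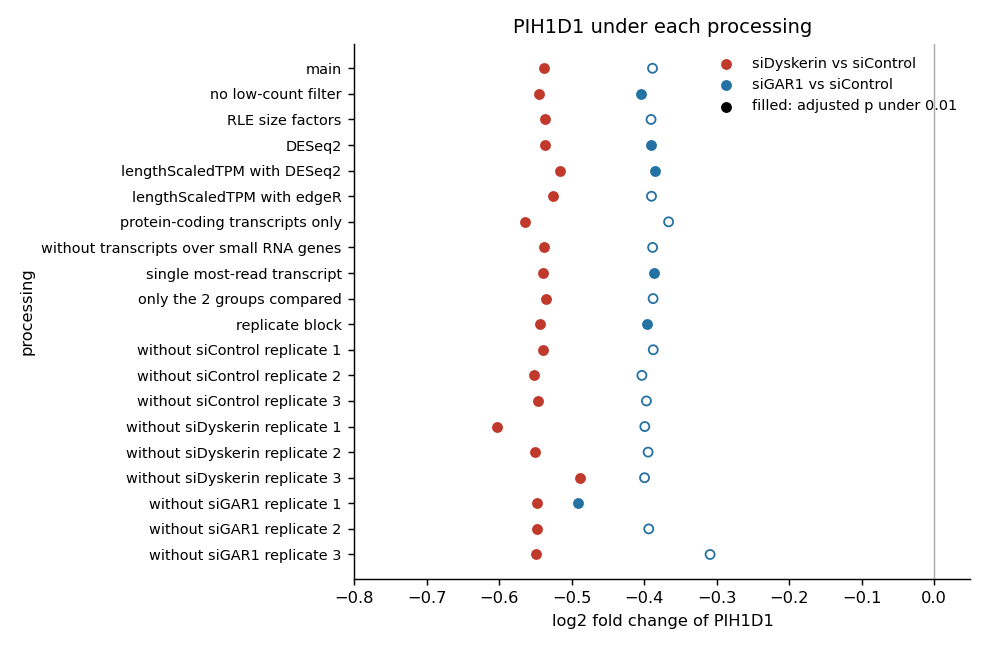
The log2 fold change of PIH1D1 (x axis) as reported (main) and under each of the 19 alternatives (y axis), for siDyskerin minus siControl and siGAR1 minus siControl. Filled points passed an adjusted p of 0.01. All the siDyskerin points are filled, and 6 of the alternative siGAR1 points are.

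The neighbouring gene ALDH16A1 (chr19:49453225-49471050, plus strand) overlaps the first 273 bases of PIH1D1 from the opposite strand, and the libraries were counted by strand. ALDH16A1 had 1036 ± 106 normalized counts in siControl, 918 ± 81.5 in siDyskerin and 1033 ± 47.7 in siGAR1 (SD, n = 3). The change of ALDH16A1 was -0.18 on the log2 scale after dyskerin knockdown (-0.38 to 0.03, adjusted p = 0.27, edgeR) and -0.01 after GAR1 knockdown (-0.21 to 0.20, adjusted p = 0.97).

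RPAP3 (ENSG00000005175.10; chr12:47661249-47706030, minus strand), the R2TP scaffold that binds HSP90 and PIH1D1, had 3126, 4479 and 4318 normalized counts in siControl, 3907, 4387 and 4046 in siDyskerin, and 4402, 4155 and 4463 in siGAR1. All 3 groups overlapped, and siControl replicate 1 was again the lowest library. Log2 fold changes of RPAP3 were 0.05 after dyskerin knockdown (-0.19 to 0.29, adjusted p = 0.83, edgeR) and 0.13 after GAR1 knockdown (-0.11 to 0.36, adjusted p = 0.52). Without siControl replicate 1 both turned to the other side of 0, at -0.10 and -0.03. The R2TP subunits PIH1D1 and RPAP3 thus stood at 68.8% ± 5.79 and 103.5% ± 6.21 of their siControl means in siDyskerin (SD, n = 3).

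ZNHIT6 (ENSG00000117174.11; chr1:85649417-85708433, minus strand), an assembly factor needed for the stability of box C/D RNAs, had 1428, 1712 and 1688 normalized counts in siControl, 1768, 1884 and 1832 in siDyskerin, and 2086, 1839 and 1873 in siGAR1. Both knockdown groups lay wholly above siControl. For ZNHIT6 the log2 fold change was 0.19 after dyskerin knockdown (0.00 to 0.37, adjusted p = 0.19, edgeR) and 0.27 after GAR1 knockdown (0.08 to 0.45, adjusted p = 0.070), and neither passed. Without siControl replicate 1, the lowest library, they were 0.10 (adjusted p = 0.53) and 0.18 (adjusted p = 0.24).

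ZNHIT3 (ENSG00000273611.5; chr17:36486629-36499310, plus strand), which binds and stabilizes NUFIP1, had 3965, 4088 and 3505 normalized counts in siControl, 3837, 4021 and 3604 in siDyskerin, and 4100, 4375 and 3900 in siGAR1. The groups overlapped. ZNHIT3 had a log2 fold change of -0.01 after dyskerin knockdown (-0.18 to 0.15, adjusted p = 0.95, edgeR) and 0.10 after GAR1 knockdown (-0.07 to 0.26, adjusted p = 0.48). MYO19, which overlaps its 3′ part over 3675 bases on the opposite strand, stood at -0.21 after dyskerin knockdown (adjusted p = 0.031) and -0.11 after GAR1 knockdown (adjusted p = 0.28).

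NUFIP1 (ENSG00000083635.8; chr13:44939249-44989471, minus strand), the factor that bridges SNU13 and the other core proteins, was the member with the fewest reads. It had 200, 201 and 201 normalized counts in siControl, 208, 192 and 177 in siDyskerin, and 204, 206 and 178 in siGAR1. The siControl libraries fell inside the range of both knockdowns. NUFIP1 stood at -0.06 on the log2 scale after dyskerin knockdown (-0.32 to 0.21, adjusted p = 0.83, edgeR) and -0.03 after GAR1 knockdown (-0.30 to 0.23, adjusted p = 0.91).

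For the 8 members other than PIH1D1, the 95% confidence intervals together ran from -0.32 to 0.37 after dyskerin knockdown and from -0.30 to 0.45 after GAR1 knockdown, that is from 0.799 to 1.29 times and from 0.814 to 1.37 times the siControl level. Their smallest adjusted p was 0.11 and 0.070. Of the 9 genes, 3 had groups that did not overlap after dyskerin knockdown (1 higher, 2 lower) and 3 after GAR1 knockdown (2 higher, 1 lower), beside 31.4% and 27.7% of all genes.

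**Figure D3:**
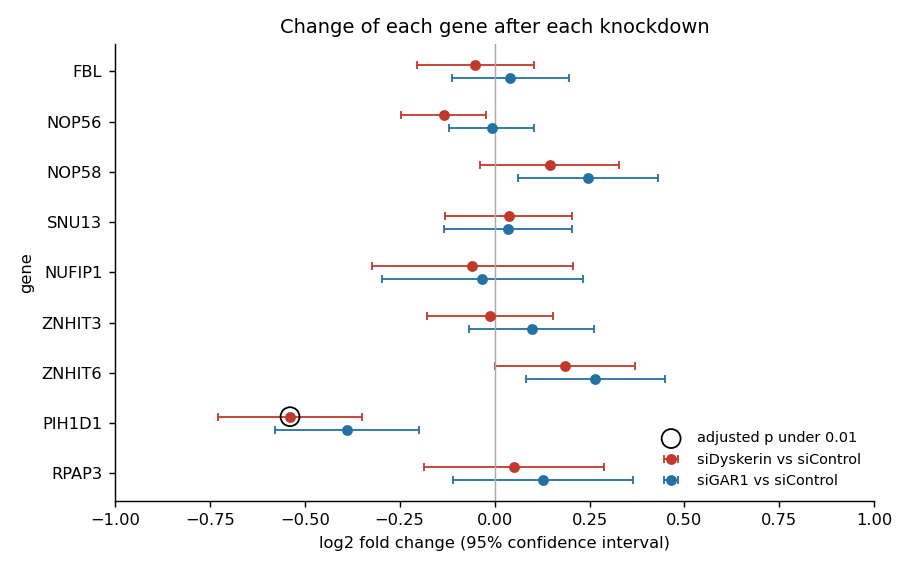
The log2 fold change of each of the 9 genes with its 95% confidence interval (x axis), for siDyskerin minus siControl and siGAR1 minus siControl, from edgeR. The circled point, PIH1D1 after dyskerin knockdown at -0.54, is the 1 value that passed an adjusted p of 0.01.

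Levels can be compared between genes only per length. The TPM (a transcript's reads per length, scaled to the library total) of the MANE Select transcript, the reference transcript of each gene, was used. Where reads are counted in several transcripts that total is inflated, so these TPM are relative values and not true shares of the RNA. In siControl the order was NOP56 (29.9 ± 0.0923 TPM), NOP58 (26.3 ± 3.43), FBL (24.0 ± 0.277), SNU13 (22.8 ± 1.99), ZNHIT3 (18.0 ± 1.30), PIH1D1 (8.15 ± 0.0536), RPAP3 (5.58 ± 0.920), ZNHIT6 (4.0 ± 0.36) and NUFIP1 (0.994 ± 0.0209; SD, n = 3 for each). By this measure the 4 core proteins stood above the assembly factors. With TPM summed over all transcripts of a gene, which grows with the number annotated, PIH1D1 (147 ± 3.79) overlapped SNU13 (151 ± 11.5) and lay above ZNHIT3 (83.4 ± 6.53). Within the core, NOP58 overlapped FBL and FBL overlapped SNU13, so these neighbours cannot be ordered, while NOP56 lay above NOP58 in every library comparison by a narrow margin (29.8 against 29.6 TPM at the nearest). ZNHIT3 stood apart from the other assembly factors, next to the core proteins.

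By the MANE Select transcript the order changed little in the knockdowns. NOP58 came first in both, with 29.3 ± 1.63 TPM in siDyskerin, where it overlapped NOP56 at 27.8 ± 0.646, and 30.5 ± 0.373 in siGAR1, where every library was above NOP56 at 29.7 ± 0.359. With summed TPM, NOP56 came first in both (474 ± 15.9 and 498 ± 7.77), then FBL (241 ± 12.9 and 248 ± 16.3) and NOP58 (216 ± 10.8 and 221 ± 3.62). PIH1D1 stood at 5.76 ± 0.508 TPM in siDyskerin and 6.19 ± 0.700 in siGAR1 and then overlapped RPAP3 (5.91 ± 0.373 and 5.81 ± 0.379), from which it was separated in siControl. NUFIP1 was last in each group, with 0.959 ± 0.109 and 0.929 ± 0.0581.

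**Figure D4:**
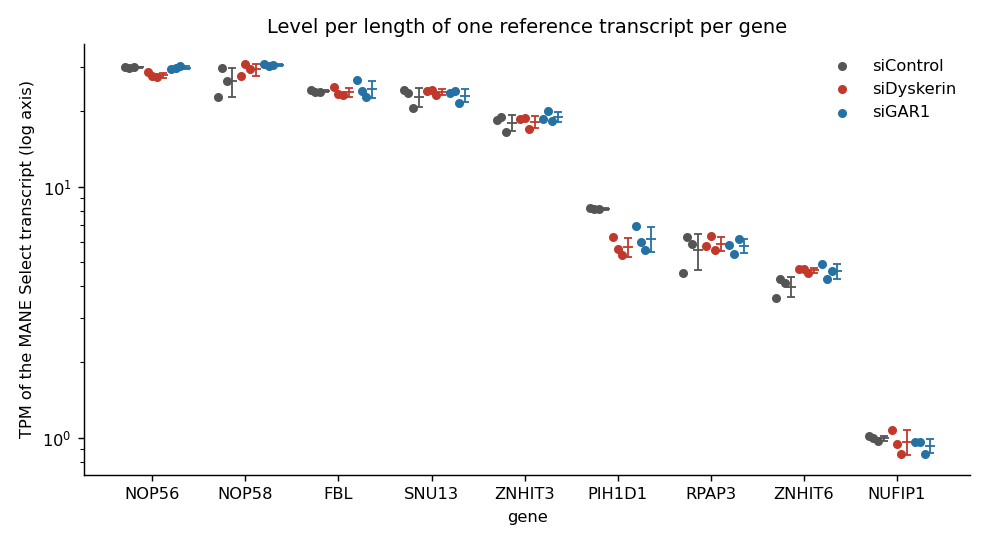
TPM of the MANE Select transcript of each gene (log axis), with genes ordered by their siControl mean. Points are libraries and bars are mean ± SD (n = 3). The core genes lie near 20 to 30 TPM, and PIH1D1 moves from 8.15 TPM in siControl to the level of RPAP3 in both knockdowns.

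Transcripts were also compared one by one, with 24 tested for PIH1D1, 20 for NOP56, 12 for ZNHIT3, 11 for FBL, 10 for NOP58, 7 each for SNU13 and RPAP3, 2 for ZNHIT6 and 1 for NUFIP1. Reads that fit several transcripts were taken to be counted in each of them, so transcripts of a gene are not independent. All 24 PIH1D1 transcripts were below 0 in both knockdowns, from -0.63 to -0.29 after dyskerin knockdown and from -0.48 to -0.21 after GAR1 knockdown. Of these, 15 passed as lower after dyskerin knockdown and 7 after GAR1 knockdown, where 3.28% and 2.12% of 108808 transcripts did. None passed as higher (background 3.3% and 1.99%). By annotated class, 6 of 8 protein-coding, 5 of 7 nonsense-mediated decay and 4 of 8 retained-intron transcripts of PIH1D1 passed after dyskerin knockdown.

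The MANE Select transcript PIH1D1-201 had 687, 679 and 679 normalized counts in siControl, 509, 475 and 434 in siDyskerin, and 577, 517 and 472 in siGAR1. It fell by 0.52 on the log2 scale after dyskerin knockdown (adjusted p = 7.1e-05, edgeR over all transcripts) and by 0.38 after GAR1 knockdown (adjusted p = 0.0038). PIH1D1-221, a protein-coding transcript with the smallest p in both knockdowns, fell by 0.59 (adjusted p = 2.4e-05) and 0.41 (adjusted p = 0.0028). Every knockdown library of both transcripts lay below every siControl library.

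Of the 70 tested transcripts of the other 8 members, 2 passed, both higher after GAR1 knockdown. That is 2.86%, beside the 1.99% of all transcripts that passed as higher, so it is no result about the members as a group, and their values are given as a description. NOP58-203, annotated as a target of nonsense-mediated decay, had 744, 936 and 850 normalized counts in siControl, 906, 1008 and 1025 in siDyskerin, and 1146, 1062 and 1034 in siGAR1, and rose by 0.36 on the log2 scale after GAR1 knockdown (standard error 0.08, adjusted p = 0.0049, edgeR). SNU13-206, a rarely read protein-coding transcript, had 26.0, 32.3 and 28.5 in siControl, 33.0, 37.7 and 33.0 in siDyskerin, and 51.9, 49.3 and 61.3 in siGAR1. It rose by 0.90 after GAR1 knockdown (standard error 0.19, adjusted p = 0.0026), and the siGAR1 libraries lay above the others. The MANE Select transcript of SNU13, SNU13-202, had 2247 to 2660 normalized counts in siControl and 2367 to 2709 in siGAR1.

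A shift in the share of transcripts within a gene was tested for the 8 members with more than 1 transcript, and 0 of 8 passed an adjusted p of 0.01 in edgeR's diffSpliceDGE in any comparison, beside 0.174%, 0.166% and 0.198% of 12644 genes for dyskerin knockdown, GAR1 knockdown and the difference between them. At an unadjusted p under 0.05 there were 0, 2 and 1. The smallest value was that of SNU13 after GAR1 knockdown (adjusted p = 0.22, edgeR). PIH1D1 had an adjusted p near 1 in each. If a read is counted in each transcript it fits, as was taken to hold, transcripts of a gene tend to move together. The test could therefore miss a shift between them, and no conclusion on transcript shares is drawn.

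**Figure D5:**
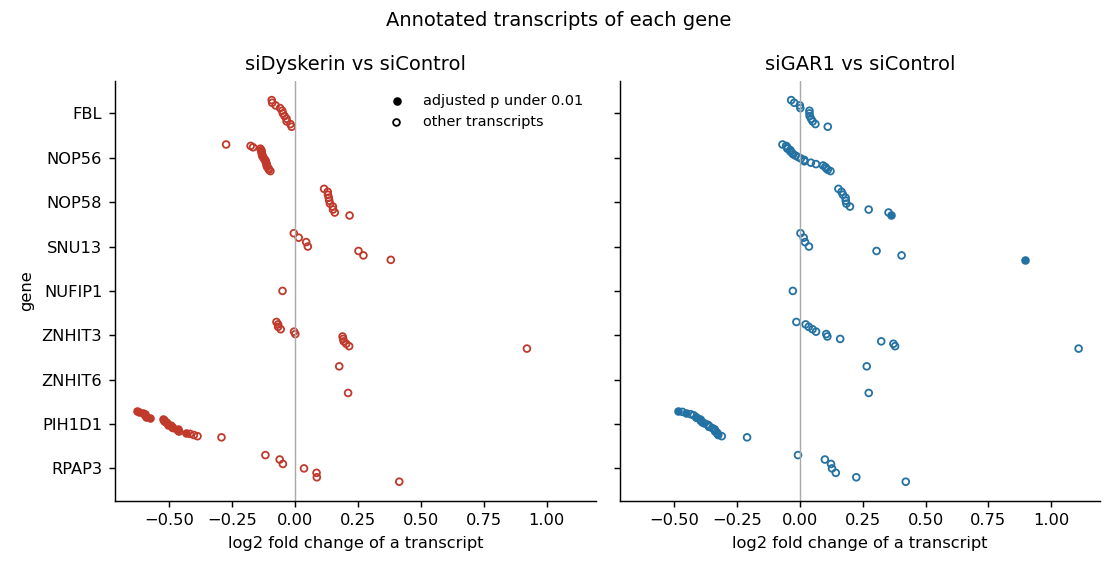
The log2 fold change (x axis) of each tested transcript of the 9 genes, for siDyskerin minus siControl (left) and siGAR1 minus siControl (right). Filled points passed an adjusted p of 0.01. All 24 PIH1D1 transcripts lie left of 0 on both sides, and the filled points right of 0 are SNU13-206 at 0.90 and NOP58-203 at 0.36 after GAR1 knockdown.

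The guest snoRNAs were hardly read in these libraries, so their counts allowed almost no comparison. Why they had so few reads was not tested. SNORA51 had the most reads, 11, 13 and 4 in siControl, 4, 6 and 6 in siDyskerin, and 17, 14 and 5 in siGAR1 (raw counts). It was the 1 guest of 9 that passed the count filter. SNORA51 stood at -0.61 on the log2 scale after dyskerin knockdown (-1.71 to 0.49, adjusted p = 0.51, edgeR), 0.52 after GAR1 knockdown (-0.45 to 1.48, adjusted p = 0.53) and -1.12 between the knockdowns (-2.18 to -0.06, adjusted p = 0.17), intervals that ran on both sides of 0 in each knockdown.

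The other 8 guests had at most 11 reads in any library. SNORD86 had 20, 16 and 20 reads in all in the siControl, siDyskerin and siGAR1 libraries, SNORD110 15, 16 and 20, and SNORD70 3, 1 and 3. The SNORD86 sequence is also contained in 5 annotated NOP56 transcripts, SNORD56 and SNORD57 in 2 each and SNORD110 in 1. Reads of these guests cannot be told apart from those of these host transcripts. The 4 NOP58 guests had 21 reads together. Differences of the box C/D guests were not detectable with so few reads.

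The wider pathway was described by fixed lists of 29 further genes, all of which were tested. After dyskerin knockdown 0 of 29 passed as higher and 1 as lower, beside 3.08% and 3.32% of all genes. After GAR1 knockdown none passed in edgeR and 2 in DESeq2, beside 1.63% and 1.79% in edgeR. Between the knockdowns 1 was higher and 2 lower in siDyskerin, beside 2.61% and 2.78%. At an unadjusted p under 0.05 there were 6, 9 and 8 of 29 in these comparisons, against 26.1%, 24% and 25.5% of all genes. Their median log2 fold changes were -0.02, 0.01 and -0.05.

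Of 13 partners of R2TP and related chaperone subunits, RUVBL1, the helicase that works with PIH1D1 and RPAP3, fell by 0.31 after dyskerin knockdown (standard error 0.07, adjusted p = 0.0081, edgeR), from 5905 ± 408 to 4752 ± 231 normalized counts (SD, n = 3), and had 5465 ± 180 in siGAR1. Its call was lost in 7 of 19 alternatives: in a fit of the 2 groups alone and without siControl replicate 1 or 2, any of the siDyskerin libraries or siGAR1 replicate 1 (adjusted p 0.011 to 0.044). Its partner helicase RUVBL2 had 18832 ± 1144 in siControl and 16156 ± 1041 in siDyskerin (log2 fold change -0.22, adjusted p = 0.086), and URI1, a prefoldin-like subunit, 11806 ± 807 and 14397 ± 648 (0.29, adjusted p = 0.019).

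The 8 transport and maturation genes, 4 genes of U3-specific proteins and 4 genes of proteins of the U4 particle, which also holds SNU13, gave 3 further calls, all between the knockdowns: 1 of 16 higher and 2 lower in siDyskerin, beside the 2.61% and 2.78% of all genes. PRPF4, a U4/U6 protein, had 2227 ± 97.3 normalized counts in siControl, 1816 ± 78.1 in siDyskerin and 2578 ± 123 in siGAR1 (SD, n = 3), and siDyskerin minus siGAR1 was -0.50 (adjusted p = 0.00050, edgeR). PRPF3, its partner, had 3881 ± 86.2, 3762 ± 61.0 and 4717 ± 358 (-0.33, adjusted p = 0.0067). NCBP2, the smaller cap-binding subunit, had 8410 ± 406, 8621 ± 391 and 6979 ± 198 (0.30, adjusted p = 0.0066). The calls of NCBP2 and PRPF3 were each lost in 9 of 19 alternatives, among them those without any 1 of the siDyskerin libraries, siControl replicate 2 or 3, or siGAR1 replicate 1 or 2. In the U3 list, RRP9, which binds the U3 RNA, had 907 ± 34.3 in siControl, 685 ± 49.4 in siDyskerin and 862 ± 110 in siGAR1, and its log2 fold change of -0.40 after dyskerin knockdown did not pass (adjusted p = 0.016).

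Of the 6 H/ACA core and assembly genes, the targeted gene alone passed in each knockdown: 1 lower after dyskerin knockdown (DKC1) and 1 lower after GAR1 knockdown (GAR1), and their median log2 fold changes were 0.01 and 0.03. The calls of DKC1 and GAR1 are those of the siRNA targets, so they do not compare with the 1 of 9 and 0 of 9 box C/D genes. Of all genes tested, 3.32% and 1.79% passed as lower.

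Likeness over the 9 libraries was described by Pearson's r of log2 CPM, without a test, since libraries share groups and scaling. Among the members themselves the highest pairs were NOP58 with ZNHIT6 (r = 0.92) and NOP58 with RPAP3 (0.83), the 3 genes with a low siControl replicate 1, and the lowest was ZNHIT6 with PIH1D1 (-0.55). Among 9073 protein-coding genes outside the lists, those like FBL included PLAU (0.95) and DDX31 (0.94), and those most like NOP56 were NDUFB3 (0.98), DDX23 (0.97) and UBE2S (0.97). NOP58 was most like KRBOX4 (0.98), BCLAF1 (0.97) and HTATSF1 (0.97), and SNU13 most like SNRPC (0.97), RP9 (0.96) and RACK1 (0.94), each over 9 libraries.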

How the data were processed

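Per the labels and the study's methods, the authors depleted rRNA with RiboCop, made CORALL libraries, trimmed reads (Trim Galore 0.6.4), removed rRNA and tRNA (Bowtie2 2.4.1) and quantified transcripts with Salmon 1.2.0 as stranded pairs against GENCODE 27 on GRCh38. The submitters' processing notes also name STAR 2.7.0e. The deposited values used are estimated counts and TPM of each transcript in 9 tables, and the deposited effective lengths entered only the length-scaled alternatives. Among 2351 nested transcript pairs the longer had no fewer reads in 2348, and 0 of these pairs came from the members. Estimated counts were whole numbers for 99.998 to 100% of transcripts in each library. A read was therefore taken to be counted in each transcript it fits, also in the members, and a gene's sum compares only with itself.

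Of 200401 transcripts, 195887 were matched by identifier to GENCODE 44, and the 4514 others (3.69 to 3.84% of reads) were left out. Estimated counts were summed per gene, rounded, scaled by TMM and filtered by filterByExpr (18444 genes). edgeR 4.0.16 quasi-likelihood tests with limma 3.58.1 were fitted to all 9 libraries without covariates in R 4.3.3, with p adjusted by Benjamini-Hochberg over all genes and 0.01 as the threshold. Errors are SD over 3 libraries. The common biological coefficient of variation was 0.0886. Transcripts (108808) were fitted likewise and usage tested with diffSpliceDGE. Alternatives (19 per gene and comparison) included DESeq2 1.42.0, length-scaled counts, other transcript sets, scaling and each library left out. The study weighted its adjusted p by covariate, which was not run here. The scripts were tested on simulated data. Python 3.11.15, pandas 2.3.3 and matplotlib 3.10.9 handled tables and plots.

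The members, the other pathway lists and the tests were chosen with earlier results of these data known. Named genes are all 9 members, their intronic snoRNAs, the other listed genes with the smallest p (at most 3 per list and comparison), member transcripts with the smallest p, and the 3 genes most like each core gene. A gene that this rule picks is not reported here. ALDH16A1 and MYO19 were named as the protein-coding genes that overlap members. Of 10 annotated genes that overlap members, 3 passed the count filter. The 4 processed pseudogenes of NOP56 and NUFIP1 had at most 6 reads in a library.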

Additional observations from a re-analysis of the deposited data

Results flagged for a closer look

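No member differed between the knockdowns by the test of that difference. Among the other listed genes, siDyskerin minus siGAR1 passed an adjusted p of 0.01 in edgeR's quasi-likelihood test for NCBP2 (log2 difference 0.30), PRPF3 (-0.33) and PRPF4 (-0.50). It also passed for both targeted genes, DKC1 (-2.99) and GAR1 (2.89). The calls of NCBP2 and PRPF3 were each lost in 9 of 19 alternatives, with adjusted p up to 0.038 and 0.041, and that of PRPF4 in none of the 19 (up to 0.0049).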

How the results depend on the processing

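The members were recomputed under 19 alternatives in each of the 3 comparisons (513 values). In 479 the direction and the side of the threshold were those of the reported value. For dyskerin knockdown 1 member (PIH1D1) passed in every alternative. For GAR1 knockdown the count of members passing was 1 and not 0 without the low-count filter, with DESeq2, with length-scaled counts in DESeq2 and with the single most-read transcript of each gene, and 0 to 1 with 1 library left out (1 without siGAR1 replicate 1). The cause was not tested.

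With the replicate number as a block, 1 member (PIH1D1) passed after GAR1 knockdown, with an adjusted p of 0.0049. Over all genes, deviations of same-numbered libraries had correlations of -0.07 to 0.10, against -0.10 to 0.06 for different numbers. Between siControl and siDyskerin the same-numbered values (0.10, 0.074 and 0.039) lay above the others (at most 0.018). In the other group pairs they overlapped. The block raised the number of genes passing in each comparison, from 630 to 711 after GAR1 knockdown. Whether the numbers mark pairs is thus not settled, and the main fit does not take them as pairs. The block moved no other member's call.

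The direction changed in 28 member values, all near 0 and none past the threshold. After dyskerin knockdown RPAP3 was -0.0082 with length-scaled counts in DESeq2 and -0.018 in edgeR, and with 1 library left out the values ran from -0.045 to 0.084 (SNU13), -0.083 to 0.025 (ZNHIT3) and -0.10 to 0.14 (RPAP3), and outside the members from -0.0053 to 0.066 (NCBP2). After GAR1 knockdown NOP56 was 0.026 with protein-coding transcripts only, 0.017 without transcripts over small RNA genes and 0.012 with the single transcript, and with 1 library left out the values ran from -0.028 to 0.098 (FBL), -0.037 to 0.00018 (NOP56), -0.047 to 0.087 (SNU13), -0.077 to 0.023 (NUFIP1) and -0.025 to 0.21 (RPAP3). Between the knockdowns SNU13 was -0.0061 with protein-coding transcripts only and -0.0042 with the single transcript, NUFIP1 was 0.0085 and 0.0032 with length-scaled counts, and with 1 library left out the values ran from -0.060 to 0.039 (SNU13) and -0.092 to 0.026 (NUFIP1). With TPM summed over all transcripts of a gene the siControl levels were 511 (NOP56), 246 (FBL), 196 (NOP58), 151 (SNU13), 147 (PIH1D1), 83.4 (ZNHIT3), 45.1 (RPAP3) and 6.44 (ZNHIT6), sums that grow with the number of annotated transcripts. Usage gave 0 shifted members in every alternative run. SNORA51 had values in 17 or 18 alternatives, with no change of call. The number of other listed genes passing after dyskerin knockdown ran from 0 to 4 over the alternatives, and after GAR1 knockdown from 0 to 2.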
